A study of Mus musculus with 6 samples.

Results

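The integrin and laminin genes are the receptors and the ligands of one adhesion system. They were taken as every probe set of the array table whose gene symbol starts with Itga or Itgb, is Lama, Lamb or Lamc followed by a digit, or is Nid1 or Nid2. Itgam and the integrin-binding proteins with "bp" in their symbol were left out. The rule found 39 genes of 20239 with 1 symbol: 27 integrin genes and 12 laminin and nidogen genes. The 27 include Itgbl1, which the symbol brings in although it encodes a secreted protein resembling part of a beta chain and no receptor chain.

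An integrin is a pair of 1 alpha and 1 beta chain in the plasma membrane that binds matrix outside the cell and, through talin and kindlin, the actin skeleton inside. A laminin is a trimer of 1 alpha, 1 beta and 1 gamma chain that polymerises into the basement membrane, and the nidogens tie that sheet to the collagen IV network. In the heart, a basement membrane surrounds every muscle cell and every capillary, and muscle cells hold it at costameres, where integrins and dystroglycan carry force from the sarcomere to the matrix.

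The RNA came from the heart ventricles of male mice aged 3.5 weeks, of the strain 129/Sv in both groups, and was measured on Affymetrix arrays (Mouse Gene 1.0 ST). The labels give 3 arrays to Hspa4-/- mice, which lack the cytosolic chaperone Hspa4 of the Hsp110 family, and 3 arrays to Hspa4+/+ mice. The labels name no operation, drug or second allele for either group, nor the part of Hspa4 that is missing. The comparison asks which genes differ in the young ventricle when Hspa4 is lost. Values are deposited log2 intensities, given below for replicates 1, 2 and 3 of each label in that order, and a difference is that of the group means, Hspa4-/- label minus Hspa4+/+, with limma's moderated standard error (SE).

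Hspa4 itself read 9.33, 6.63 and 6.75 on the arrays labelled Hspa4-/-, against 9.74, 9.50 and 9.48 on the Hspa4+/+ arrays. The array labelled Hspa4-/- replicate 1 therefore goes against its label, and its Xist value of 7.68 also stands apart from the 5.51 to 5.69 of the other arrays, although all are labelled male. Over 6 arrays Hspa4 had a difference of −2.01 (SE 0.58; adjusted p = 0.263 by limma; exact two-sided permutation p = 0.1, the smallest that 3 against 3 arrays allow). Without that array the Hspa4 difference was −2.89 (SE 0.10; adjusted p = 9.37e-06 by limma). Most results are given on all 6 arrays and on the 5 left without that array, which share their arrays and are not independent. A difference or median given once, with no form named, is from all 6 arrays. Array medians lay between 6.42 and 6.48 and SDs between 1.19 and 1.27. The ventricular marker Myl2 read between 11.30 and 11.74 on every array, and that marker was thus present on each. Precision is limited by how few arrays there were.

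The data showed small differences in both directions among the 39 genes, and 0 of them passed the threshold in either form (limma, adjusted p under 0.05 over 20239 genes). The share of all genes past that threshold was 0% on 6 arrays and 0.44% on 5, of which 0.232% higher and 0.208% lower. The differences with the largest size on 6 arrays were those of Lama5 at 0.34, Itga5 at 0.31, Itga3 at 0.28 and Nid2 at 0.25 upward, and of Itgb8 at −0.25 and Itgb6 and Itgbl1 at −0.22 downward. Laminin and nidogen genes had a median difference of 0.07 with 10 of 12 above 0, and integrin genes a median of −0.03 with 11 of 27 above 0. The median over all genes was −0.01, with 9278 of 20239 above 0. The lowest 50% of genes were also left out on 6 arrays. The medians were then 0.12 for laminin and nidogen genes, 0.002 for integrin genes and 0.02 for all genes. In bulk ventricle RNA, fewer cells of a type and less RNA per cell cannot be told apart. Without the array labelled Hspa4-/- replicate 1 the medians were 0.10 for laminin and nidogen genes, −0.06 for integrin genes and −0.02 for all genes.

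At an unadjusted p under 0.05 (limma), 8 of the 39 genes were counted on 6 arrays, or 20.5%, where all genes gave 11.2%. Of the 8, 5 lay higher (all genes 5.64%) and 3 lower (all genes 5.53%). On 5 arrays 10 of 39 were counted, or 25.6%, where all genes gave 14.9%. Of the 10, 7 lay higher (all genes 8.55%) and 3 lower (all genes 6.36%). Counts of genes whose groups did not overlap lay nearer to the background. On 6 arrays 4 members were higher without overlap (10.3%, all genes 6.08%) and 4 were lower without overlap (10.3%, all genes 9.07%). On 5 arrays the counts were 9 higher (23.1%, all genes 14.4%) and 7 lower (17.9%, all genes 18.9%). Of the 39 genes, 38 passed a filter leaving out the lowest 25% of genes by mean value, and 24 passed one leaving out the lowest 50%. Of the 4 lower genes on 6 arrays, Itgb8, Itgal and Itgbl1 lay in that lowest 50% and Itga4 lay just above it, while each of the 4 higher genes passed the filter.

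Promoters are shown for Itga3, Itga5 and Lamb1, the alpha chain of a laminin receptor, the alpha chain of the fibronectin receptor and a laminin chain, since their differences on 5 arrays were among the largest upward ones and all 3 are in the sequence table. The sequences are the 250 bases before the annotated start in RefSeq, build GRCm38.p6, written 5′ to 3′ on the gene's strand. Itga3 lies at chr11:95076715-95076964 on the minus strand, Itga5 at chr15:103366792-103367041 on the minus strand and Lamb1 at chr12:31265043-31265292 on the plus strand. For Itga3 the first of 2 listed starts is shown. Capitals mark GC boxes, the letters GGGCGG read on either strand.
Itga3: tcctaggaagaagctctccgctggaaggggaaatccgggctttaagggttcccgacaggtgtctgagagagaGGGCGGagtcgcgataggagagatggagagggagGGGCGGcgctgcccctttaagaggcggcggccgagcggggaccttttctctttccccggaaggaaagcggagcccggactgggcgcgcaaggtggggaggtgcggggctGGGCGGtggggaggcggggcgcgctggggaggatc
Itga5: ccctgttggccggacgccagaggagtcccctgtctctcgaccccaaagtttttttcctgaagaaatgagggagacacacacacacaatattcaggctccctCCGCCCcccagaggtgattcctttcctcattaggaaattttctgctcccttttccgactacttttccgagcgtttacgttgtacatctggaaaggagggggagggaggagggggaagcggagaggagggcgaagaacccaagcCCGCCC
Lamb1: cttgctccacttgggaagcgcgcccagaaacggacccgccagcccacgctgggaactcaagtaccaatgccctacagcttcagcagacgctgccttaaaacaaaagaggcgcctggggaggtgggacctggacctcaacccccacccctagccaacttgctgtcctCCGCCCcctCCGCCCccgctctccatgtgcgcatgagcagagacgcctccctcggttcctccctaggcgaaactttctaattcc
The Itga3 window held 3 GC boxes, the Itga5 window 2 and the Lamb1 window 2, and 32.7% of all 32851 windows of this length in the table held at least 1. The CCAAT box (CCAAT, in 33.8% of all windows) had 1 match in the Lamb1 window and 0 in the other two. The TATA box (TATAAA, 12.4%), the AP-1 site (TGANTCA, 6.75%) and the core of the heat shock element (GAANNTTC, 6.69%) had 0 matches in these 3 windows. Both strands were searched, and no match of 1 motif overlapped a match of another. Of the 39 genes, 25 were matched in the table with 28 windows, of which 10 held a GC box and 2 the heat shock element core.

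Laminin alpha chains decide which receptors a trimer binds. Lama2, the alpha chain of the laminin around muscle fibres, read 9.98, 10.37 and 10.19 on the arrays labelled Hspa4-/-, against 10.18, 10.16 and 10.18 on the Hspa4+/+ arrays. The difference was 0.00 on 6 arrays (SE 0.09; limma, adjusted p = 0.994; 95% interval −0.21 to 0.22) and 0.11 on 5 (SE 0.08). The Hspa4+/+ arrays lay close together, and the arrays labelled Hspa4-/- lay on both sides of them, with replicate 1 lowest. Lama4, the alpha chain of endothelial basement membranes that muscle also makes, read 9.10, 9.23 and 9.66 on the arrays labelled Hspa4-/-, against 9.47, 9.19 and 9.25. Its groups overlapped, and the difference was 0.03 on 6 arrays (SE 0.14) and 0.15 on 5 (SE 0.13).

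Lama5, found in mature vessel walls and epithelial basement membranes, read 8.02, 7.85 and 7.77 on the arrays labelled Hspa4-/-, against 7.37, 7.81 and 7.44 on the Hspa4+/+ arrays. Here the array labelled Hspa4-/- replicate 1 was the highest of all, and Hspa4+/+ replicate 2 lay inside the range of the arrays labelled Hspa4-/-. The difference was 0.34 on 6 arrays (SE 0.12; limma, adjusted p = 0.322) and 0.27 on 5 (SE 0.12; limma, adjusted p = 0.359). With Hspa4+/+ replicate 2 also left out, so that 2 arrays stand against 2, Lama5 differed by 0.40 and passed (limma, adjusted p = 0.0293). In that run 875 of 20239 genes passed. The Hspa4+/+ array it left out was the one nearest the other group for Lama5. Over the 12 alternatives on 5 arrays the Lama5 difference ran from 0.18 to 0.40. Lama1, the alpha chain of the early embryo, read between 5.85 and 6.03 on the arrays labelled Hspa4-/- and between 6.02 and 6.09 on the Hspa4+/+ arrays. It differed by −0.11 on 6 arrays (SE 0.07) and by −0.15 on 5 (SE 0.07), where it was lower without overlap. Lama3, the alpha chain of skin and other epithelia, stayed between 6.54 and 6.56 on the arrays labelled Hspa4-/- and between 6.50 and 6.56 on the Hspa4+/+ arrays.

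Lamb1 and Lamc1, a beta and a gamma chain, lay furthest from the Hspa4+/+ mean on the array labelled Hspa4-/- replicate 3. Lamb1, the beta chain of many embryonic and adult laminins, read 8.62, 8.79 and 9.11 on the arrays labelled Hspa4-/-, against 8.63, 8.62 and 8.62 on the Hspa4+/+ arrays. Lamc1, the gamma chain of most laminin trimers, read 9.95, 10.13 and 10.20 on the arrays labelled Hspa4-/-, against 9.91, 9.93 and 9.94. For both genes the Hspa4+/+ arrays were almost level, replicate 1 of the arrays labelled Hspa4-/- lay beside them, and replicates 2 and 3 lay above. On 6 arrays Lamb1 differed by 0.22 (SE 0.11; limma, adjusted p = 0.511) and Lamc1 by 0.17 (SE 0.08; limma, adjusted p = 0.447). On 5 arrays Lamb1 differed by 0.33 (SE 0.10; limma, adjusted p = 0.173), a 1.25-fold difference, and Lamc1 by 0.24 (SE 0.07; limma, adjusted p = 0.156), a 1.18-fold difference. Without the array labelled Hspa4-/- replicate 3, Lamb1 differed by 0.08 with the other 5 arrays and by 0.17 with replicate 1 left out too.

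Lamb2, the beta chain that replaces Lamb1 in many adult basement membranes, did not share that order of arrays. It read 10.36, 9.93 and 10.15 on the arrays labelled Hspa4-/-, against 9.87, 10.13 and 9.92 on the Hspa4+/+ arrays, so the groups overlapped and replicate 1 was highest. The difference was 0.18 on 6 arrays (SE 0.11) and 0.07 on 5 (SE 0.10), a change in size by more than 1.5 times that rests on the array labelled Hspa4-/- replicate 1. Lamb3, an epithelial beta chain, read between 6.24 and 6.39 on the arrays labelled Hspa4-/- and between 6.19 and 6.36 on the Hspa4+/+ arrays. Lamc3, a gamma chain known from nervous tissue, read between 6.41 and 6.52 on the arrays labelled Hspa4-/- and between 6.40 and 6.71 on the Hspa4+/+ arrays.

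The nidogens had unlike values. Nid2 read 6.87, 6.99 and 7.05 on the arrays labelled Hspa4-/-, against 6.76, 6.81 and 6.59 on the Hspa4+/+ arrays, with no overlap between the groups. It differed by 0.25 on 6 arrays (SE 0.08; limma, adjusted p = 0.291), the smallest p of the 39 genes in that form, and by 0.30 on 5 (SE 0.08; limma, adjusted p = 0.150). Nid1, which shares its laminin-binding and collagen-binding roles, read 9.47, 9.44 and 9.63, against 9.42, 9.45 and 9.44 on the Hspa4+/+ arrays. Its groups overlapped, and it differed by 0.07 on 6 arrays (SE 0.07; 95% interval −0.09 to 0.23) and 0.10 on 5 (SE 0.08).

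**Figure D1:**
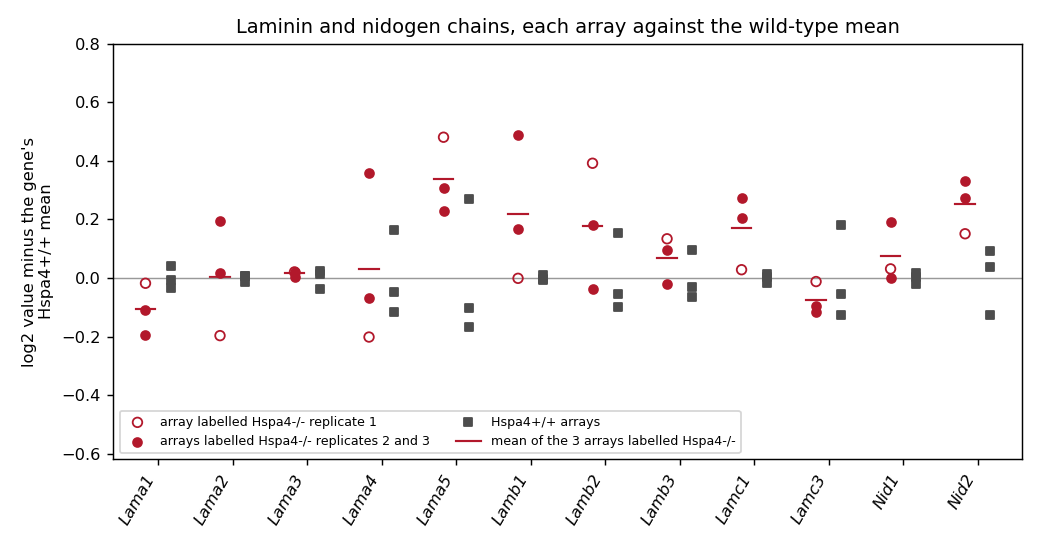
Each laminin and nidogen gene on each array, as the log2 value minus that gene's Hspa4+/+ mean. Circles are arrays labelled Hspa4-/- (open for replicate 1), squares are Hspa4+/+ arrays and bars are means of the 3 arrays labelled Hspa4-/-. The Hspa4+/+ squares of Lama2, Lamb1, Lamc1 and Nid1 lie almost on the line, and the filled circles of Lamb1, Lamc1 and Nid2 lie above it.

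Basement membrane chains are made by muscle, endothelial, mural and connective tissue cells, so the marker lists of those cells were read beside them. All genes higher without overlap made up 6.08% on 6 arrays and 14.4% on 5. Of 10 cardiomyocyte markers, 6 were higher without overlap on 6 arrays and 8 on 5, and their summed linear intensity was 41842 to 44617 on the arrays labelled Hspa4-/- and 38214 to 40337 on the Hspa4+/+ arrays. Of 10 endothelial markers, 2 were higher without overlap on 6 arrays and 4 on 5, and the sums were 4187 to 4849 on the arrays labelled Hspa4-/- and 4158 to 4340 on the Hspa4+/+ arrays. Of 10 smooth muscle and pericyte markers, 3 were higher on 6 arrays and 6 on 5, with 1 lower in both forms. Their sums were 6600 to 8174 on the arrays labelled Hspa4-/-, or 7534 to 8174 without replicate 1, and 6708 to 7426 on the Hspa4+/+ arrays. Of 10 fibroblast markers, 0 were without overlap on 6 arrays and 1 was higher on 5, and the sums were 5176 to 6007 on the arrays labelled Hspa4-/- and 5352 to 5603 on the Hspa4+/+ arrays. Cardiomyocyte sums thus stood apart between the groups in both forms and those of smooth muscle on 5 arrays. No marker was at 0 on this scale, and the part of these cells in the laminin values was not tested.

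The laminin-binding alpha chains lay on both sides of 0. Itga7, the laminin receptor chain of striated muscle, read 8.92, 8.79 and 9.02 on the arrays labelled Hspa4-/-, against 8.80, 8.94 and 8.86 on the Hspa4+/+ arrays. The values interleave, and the difference was 0.04 in both forms (SE 0.08 and 0.09), with a 95% interval of −0.13 to 0.22 on 6 arrays. Itga6, the laminin receptor chain of endothelium and epithelia, read 9.75, 9.79 and 9.87, against 10.09, 9.96 and 9.85. It overlapped by a single Hspa4+/+ array and differed by −0.16 on 6 arrays (SE 0.08; limma, adjusted p = 0.485) and −0.13 on 5 (SE 0.09). Itga3, a laminin receptor chain best known in kidney and skin epithelia, had its difference above 0.

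Itga3 read 6.94, 7.08 and 7.16 on the arrays labelled Hspa4-/-, against 6.60, 6.91 and 6.82 on the Hspa4+/+ arrays. The groups did not overlap, though replicate 1 of the Hspa4-/- label and replicate 2 of Hspa4+/+ lay only a small step apart. The difference was 0.28 on 6 arrays (SE 0.09; limma, adjusted p = 0.303) and 0.34 on 5 (SE 0.10; limma, adjusted p = 0.157), or 1.27-fold. Over the 12 alternatives on 5 arrays the Itga3 difference ran from 0.26 to 0.41. It was 0.41 with Hspa4+/+ replicate 2 also left out, and passed in that run (limma, adjusted p = 0.0480). Itga3 and Lama5 were the only members that passed under any alternative run on either form. Both did so only in that run, where 875 of 20239 genes passed.

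Itgb1, the beta chain that most alpha chains share, read 10.24, 10.37 and 10.51 on the arrays labelled Hspa4-/-, against 10.72, 10.37 and 10.63 on the Hspa4+/+ arrays. Hspa4+/+ replicate 2 lay level with the arrays labelled Hspa4-/-, and the other 2 Hspa4+/+ arrays lay above all of them. The difference was −0.20 on 6 arrays (SE 0.10; limma, adjusted p = 0.517; 95% interval −0.44 to 0.03) and −0.14 on 5 (SE 0.11). Itga1, its partner in a collagen receptor of vessels and muscle, read 8.34, 8.59 and 8.66, against 8.82, 8.57 and 8.79. Here too Hspa4+/+ replicate 2 lay among the arrays labelled Hspa4-/- and the other 2 Hspa4+/+ arrays lay above them. It differed by −0.20 on 6 arrays (SE 0.10) and −0.11 on 5 (SE 0.09). The other collagen-binding chains were Itga2 of platelets and epithelia, Itga10 of cartilage and Itga11 of fibroblasts, with differences of 0.00, 0.08 and 0.00 on 6 arrays. On 5 arrays they were −0.05, 0.00 and −0.07, and Itga11 was then lower without overlap.

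Among the chains that bind matrix through an Arg-Gly-Asp motif, the fibronectin receptor chain Itga5 read 8.09, 8.04 and 8.37 on the arrays labelled Hspa4-/-, against 7.90, 7.97 and 7.69 on the Hspa4+/+ arrays. The groups did not overlap, and the gap between the nearest arrays was small beside the spread within each group. The difference was 0.31 on 6 arrays (SE 0.10; limma, adjusted p = 0.308) and 0.35 on 5 (SE 0.12; limma, adjusted p = 0.215). On 5 arrays its size rests on the array labelled Hspa4-/- replicate 3, without which it was 0.19. Itgav, the alpha chain of the vitronectin receptors, read 7.95, 8.02 and 7.97, against 8.21, 8.01 and 8.22. Only Hspa4+/+ replicate 2 lay among the arrays labelled Hspa4-/-, and the difference was −0.17 on 6 arrays (SE 0.08; limma, adjusted p = 0.457) and −0.15 on 5 (SE 0.08).

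Itgb5, which pairs with Itgav alone, had its difference above 0. It read 8.09, 8.14 and 8.27 on the arrays labelled Hspa4-/-, against 7.87, 8.14 and 7.87 on the Hspa4+/+ arrays, and again Hspa4+/+ replicate 2 lay inside the other group's range. The difference was 0.21 on 6 arrays (SE 0.09; limma, adjusted p = 0.426) and 0.25 on 5 (SE 0.10; limma, adjusted p = 0.288). Itgb8, whose pair with Itgav releases active TGF-beta, read 6.24, 6.08 and 6.27, against 6.45, 6.31 and 6.57. It was lower without overlap and differed by −0.25 on 6 arrays (SE 0.09; limma, adjusted p = 0.322) and −0.27 on 5 (SE 0.10; limma, adjusted p = 0.245), or −0.17 when Hspa4-/- replicate 2 was left out too. Itgb6, the epithelial member of that set, differed by −0.22 on 6 arrays (SE 0.11) and −0.14 on 5 (SE 0.12), a change in size by more than 1.5 times that rests on the array labelled Hspa4-/- replicate 1. Of 8 mesothelium and epithelium markers, 0 were higher and 1 lower without overlap on 6 arrays (all genes lower 9.07%), and 0 were higher and 4 lower on 5 (all genes lower 18.9%). Their summed linear intensity was 588 to 690 on the arrays labelled Hspa4-/-, or 588 to 605 without replicate 1, and 673 to 725 on the Hspa4+/+ arrays, so the groups separated on 5 arrays. The mesothelial marker Upk3b read 6.73, 6.08 and 6.05, against 6.92, 6.69 and 6.92, was the only marker of any list that passed, and fell by 0.78 on 5 arrays (SE 0.09; limma, adjusted p = 0.0173). The part of these cells in the values of Itgb6, Itgb8 and Itga3 was not tested. Itgb3 differed by 0.08 on 6 arrays and 0.04 on 5, and Itgb4 of hemidesmosomes by 0.03 and −0.01. The platelet chain Itga2b, a partner of Itgb3, differed by −0.06 on 6 arrays and −0.11 on 5, where it was lower without overlap. The smooth muscle chain Itga8 differed by 0.04 on 6 arrays and 0.12 on 5, where it was higher without overlap.

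Itga4 and Itga9 form a branch of their own that binds VCAM1, fibronectin or tenascin. Itga4, a chain of blood cells and epicardium, read 6.28, 6.34 and 6.44 on the arrays labelled Hspa4-/-, against 6.66, 6.51 and 6.54 on the Hspa4+/+ arrays. It was lower without overlap, by −0.21 on 6 arrays (SE 0.07; limma, adjusted p = 0.315) and −0.18 on 5 (SE 0.08; limma, adjusted p = 0.332). Itga9, known from smooth muscle and lymphatic vessels, read 8.69, 9.06 and 9.36, against 8.93, 8.87 and 8.97. The arrays labelled Hspa4-/- spanned the Hspa4+/+ arrays, with replicate 1 below and the others above. Its difference was 0.11 on 6 arrays (SE 0.14; limma, adjusted p = 0.841) and 0.29 on 5 (SE 0.10; limma, adjusted p = 0.213), so its size rests on the array labelled Hspa4-/- replicate 1. Of those 5 arrays, leaving out replicate 2 of the Hspa4-/- label gave 0.44 and leaving out replicate 3 gave 0.14. Itgbl1, the secreted relative, read 6.45, 6.32 and 6.23, against 6.60, 6.54 and 6.53, with no overlap. It differed by −0.22 on 6 arrays (SE 0.07; limma, adjusted p = 0.308) and by −0.28 on 5 (SE 0.07; limma, adjusted p = 0.125), the smallest p of the 39 genes on 5 arrays.

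The leukocyte integrins Itgal, Itgax, Itgad, Itgae, Itgb2, Itgb2l and Itgb7 carry white blood cells through vessel walls and hold them in tissue. Their differences ran from −0.10 for Itgb2l to 0.11 for Itgad on 6 arrays. On 5 arrays they ran from −0.12 to 0.07 for the same genes. In either form 0 of 7 had an unadjusted p under 0.05 (limma). Itgb2, the partner of Itgal, Itgax and Itgad, read between 6.42 and 6.56 on the arrays labelled Hspa4-/- and between 6.43 and 6.63 on the Hspa4+/+ arrays. Itgal was lower without overlap by −0.07 (SE 0.06). Beside them, 4 of 9 macrophage and monocyte markers were lower without overlap on 6 arrays (all genes 9.07%) and 4 on 5 (all genes 18.9%). In the other direction, 0 were higher on 6 arrays (all genes 6.08%) and 1 on 5 (all genes 14.4%). Their summed linear intensities were 1285 to 1344 on the arrays labelled Hspa4-/- and 1427 to 1519 on the Hspa4+/+ arrays. The macrophage receptor Mrc1 differed by −0.50 (SE 0.13; limma, adjusted p = 0.239), and Csf1r, a growth factor receptor, by −0.23 (SE 0.08; limma, adjusted p = 0.313). Lymphocyte markers had 0 of 9 and platelet markers 1 of 5 lower without overlap on 6 arrays, and 2 of 9 and 2 of 5 on 5 arrays. Of the platelet markers 1 was higher without overlap on 5 arrays, and their median was 0.03 on 6 arrays and 0.02 on 5. The other marker lists had medians on 6 arrays of −0.03 for Schwann cells and neurons, −0.10 for erythroid cells and −0.01 for atrial and conduction cells. On 5 arrays these medians were −0.06, −0.05 and −0.03 in that order. The part of these cells in the values of Itga4, Itgb8 and the leukocyte integrins was not tested.

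**Figure D2:**
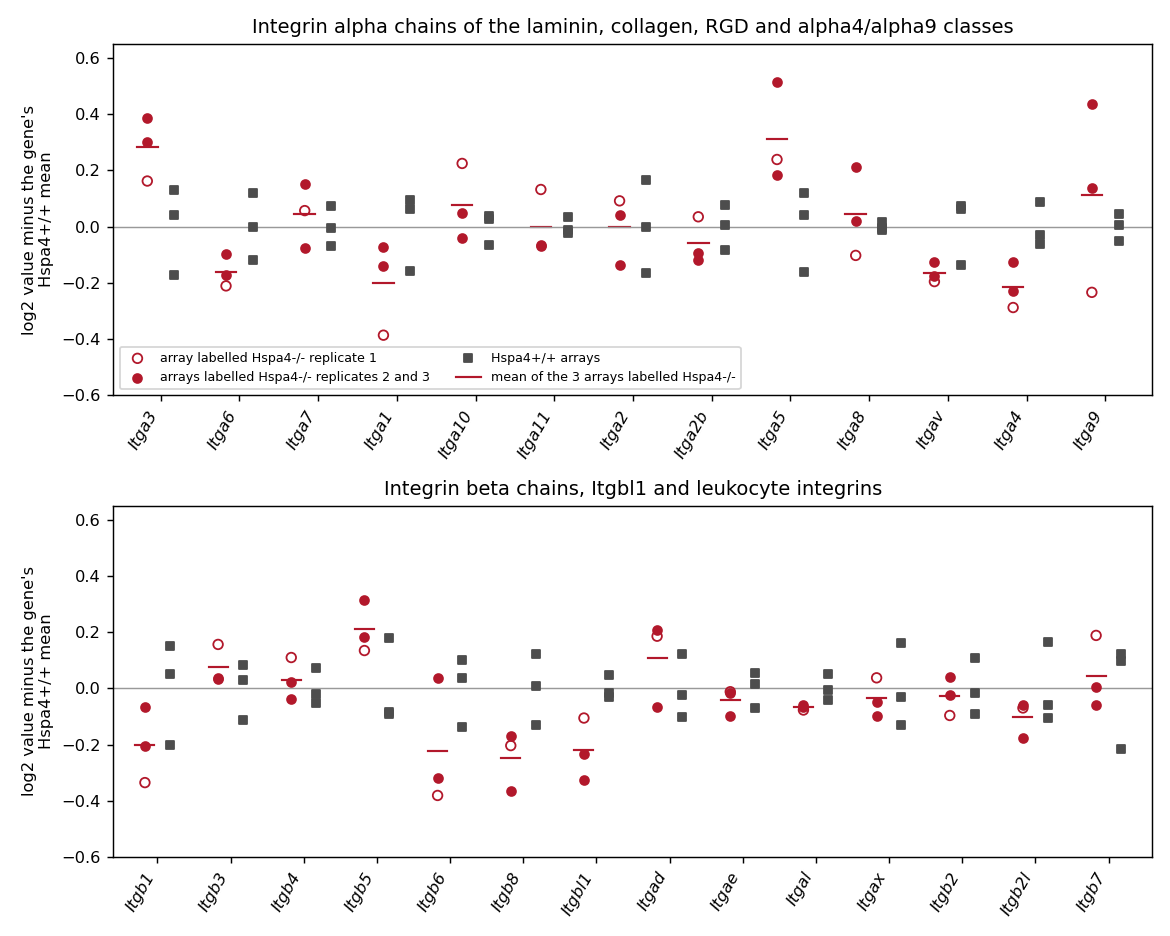
Each integrin gene on each array, as the log2 value minus that gene's Hspa4+/+ mean, by class of receptor. Circles are arrays labelled Hspa4-/- (open for replicate 1), squares are Hspa4+/+ arrays and bars are means of the 3 arrays labelled Hspa4-/-. Itga3 and Itga5 lie above the squares and Itga4, Itgb8 and Itgbl1 below them, while Itga7 and most leukocyte chains interleave.

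**Figure D3:**
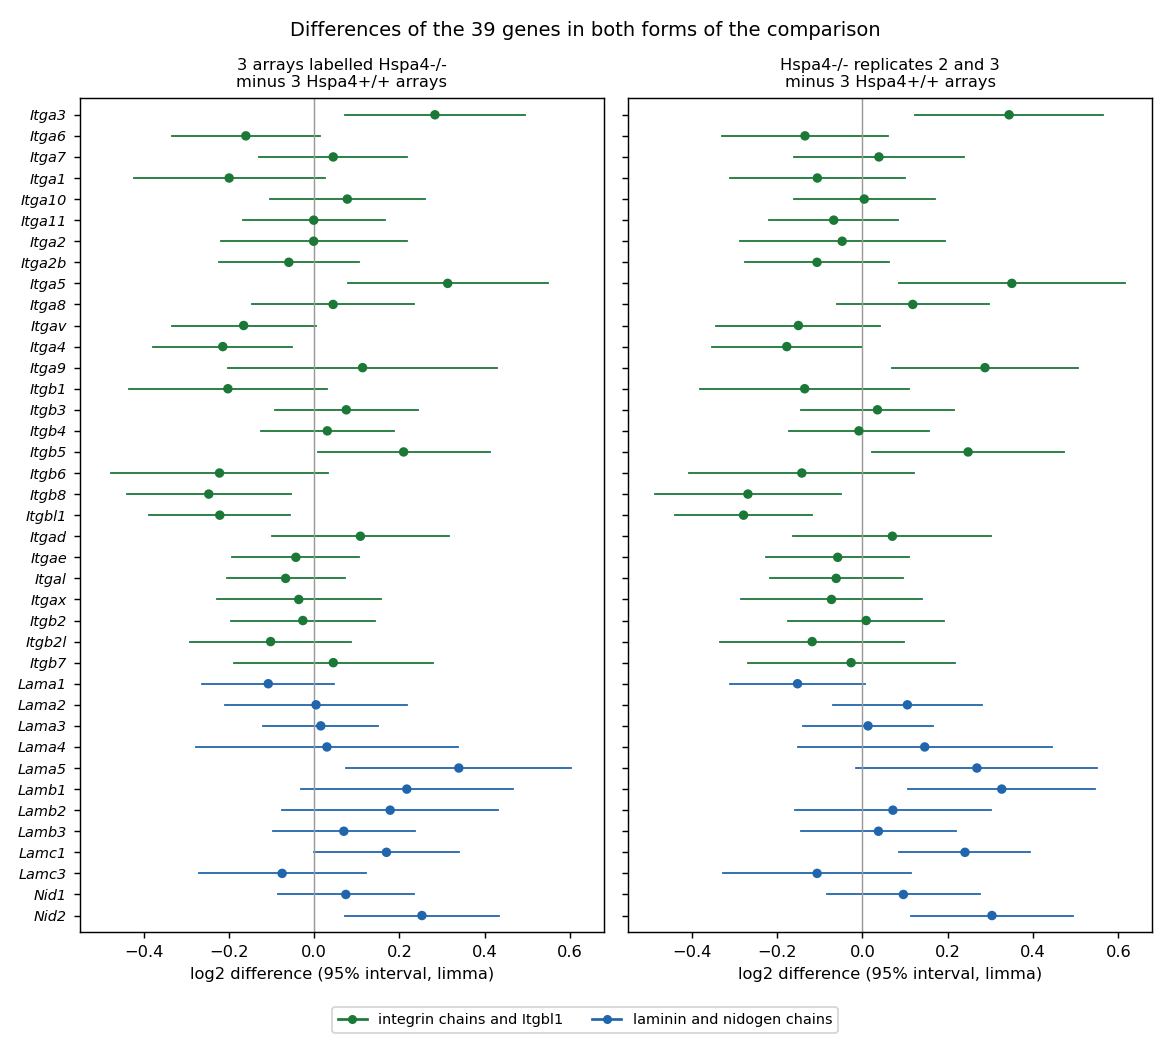
Log2 difference of each of the 39 genes between the arrays labelled Hspa4-/- and the Hspa4+/+ arrays, with limma's 95% interval before any adjustment, on 6 arrays (left) and on 5 (right). All points lie between −0.28 and 0.35, and intervals that leave out 0 belong to the 8 and 10 genes with an unadjusted p under 0.05.

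The genes that work with these chains were read from the same fits. In the adhesion core, the talin, kindlin, ILK and focal adhesion genes that join integrins to actin, 0 of 36 measured genes passed in either form. Their median difference was 0.16 on 6 arrays and 0.19 on 5, where all genes had −0.01 and −0.02. On 6 arrays 10 of 36 were higher without overlap (all genes 6.08%) and 1 lower (all genes 9.07%). On 5 arrays 20 were higher (all genes 14.4%) and 1 lower (all genes 18.9%). The zyxin gene Zyx, a stress-sensitive focal adhesion protein, read 8.03, 7.98 and 7.98 on the arrays labelled Hspa4-/-, against 7.42, 7.72 and 7.22 on the Hspa4+/+ arrays. All 3 arrays labelled Hspa4-/- stood above every Hspa4+/+ array, and the difference was 0.54 (SE 0.11; limma, adjusted p = 0.210). Tns1, which encodes tensin 1 of fibrillar adhesions, differed by 0.46 (SE 0.12; limma, adjusted p = 0.234), Ptk2b, a kinase related to focal adhesion kinase, by 0.25 (SE 0.07), and Enah, an actin regulator, by 0.38 on 6 arrays and 0.50 on 5 (SE 0.10; limma, adjusted p = 0.0655).

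The count of adhesion core genes that passed moved with Hspa4+/+ replicate 2. Without it, 3 adhesion core genes, Zyx, Tns1 and Tns2, passed (limma) on the 5 arrays left with all 3 arrays labelled Hspa4-/-, while 112 of 20239 genes passed. With array weights on all 6 arrays Zyx passed too (limma, adjusted p = 0.0488), while 115 genes passed. When replicate 1 of the Hspa4-/- label was dropped as well, 9 of 36 passed, all of them higher (limma), while 875 of 20239 genes passed. Cardiomyocyte markers had a median of 0.22 on 6 arrays and 0.26 on 5, and their part in the adhesion core values was not tested.

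Of 23 other basement membrane genes, 0 passed in either form, and the median was 0.04 in both. On 6 arrays 7 of 23 were higher without overlap (all genes 6.08%) and 1 lower (all genes 9.07%). On 5 arrays 10 were higher (all genes 14.4%) and 5 lower (all genes 18.9%). The perlecan gene Hspg2, a heparan sulfate proteoglycan that binds laminin, read 9.92, 9.57 and 9.93 on the arrays labelled Hspa4-/-, against 9.18, 9.41 and 9.26 on the Hspa4+/+ arrays. It differed by 0.53 (SE 0.11; limma, adjusted p = 0.210) on 6 arrays and 0.47 (SE 0.11; limma, adjusted p = 0.112) on 5, with no overlap. The peroxidasin gene Pxdn, which cross-links collagen IV, differed by 0.38 and 0.49, the collagen-binding protein gene Sparc by 0.25 and 0.39, and the laminin-related netrin genes Ntn1 by 0.44 and 0.51 and Ntn4 by 0.29 and 0.40. Leaving out the lowest 25% of genes let Sparc and Pxdn pass on 5 arrays (limma, adjusted p = 0.0477 and 0.0466 by the order named). With that filter 156 genes passed, against 89 without it.

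The dystroglycan complex is the other laminin receptor of muscle. Of its list of 17 measured genes, 0 passed in either form, with medians of 0.02 on 6 arrays and 0.08 on 5. Bcam, a receptor for laminins that contain the Lama5 chain, read 8.43, 8.74 and 8.81 on the arrays labelled Hspa4-/-, against 8.12, 8.39 and 8.22 on the Hspa4+/+ arrays. It did not overlap and differed by 0.42 on 6 arrays (SE 0.11; limma, adjusted p = 0.245) and 0.53 on 5 (SE 0.09; limma, adjusted p = 0.0581). It passed on 5 arrays when the lowest 25% of genes were left out, where 156 genes passed in all, against 89 without that filter. The syntrophin gene Sntb1 differed by 0.29 and 0.51, the alpha-sarcoglycan gene Sgca by 0.37 and 0.41, and the sarcospan gene Sspn by −0.19 and −0.18.

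Among 18 other integrin ligands, 0 passed, with medians of 0.03 on 6 arrays and 0.04 on 5. The fibronectin gene Fn1, ligand of the Itga5 receptor, read 8.71, 8.86 and 9.18 on the arrays labelled Hspa4-/-, against 8.59, 8.72 and 8.52 on the Hspa4+/+ arrays. The groups overlapped by 1 pair of arrays, and the difference was 0.31 (SE 0.11; limma, adjusted p = 0.360) on 6 arrays and 0.41 (SE 0.11; limma, adjusted p = 0.132) on 5. The matricellular gene Ccn2 differed by 0.53 (SE 0.16) and 0.54 (SE 0.18). Among 16 membrane partners of integrins, such as tetraspanins, caveolins and syndecans, 0 passed and the median was −0.03 in both forms.

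**Figure D4:**
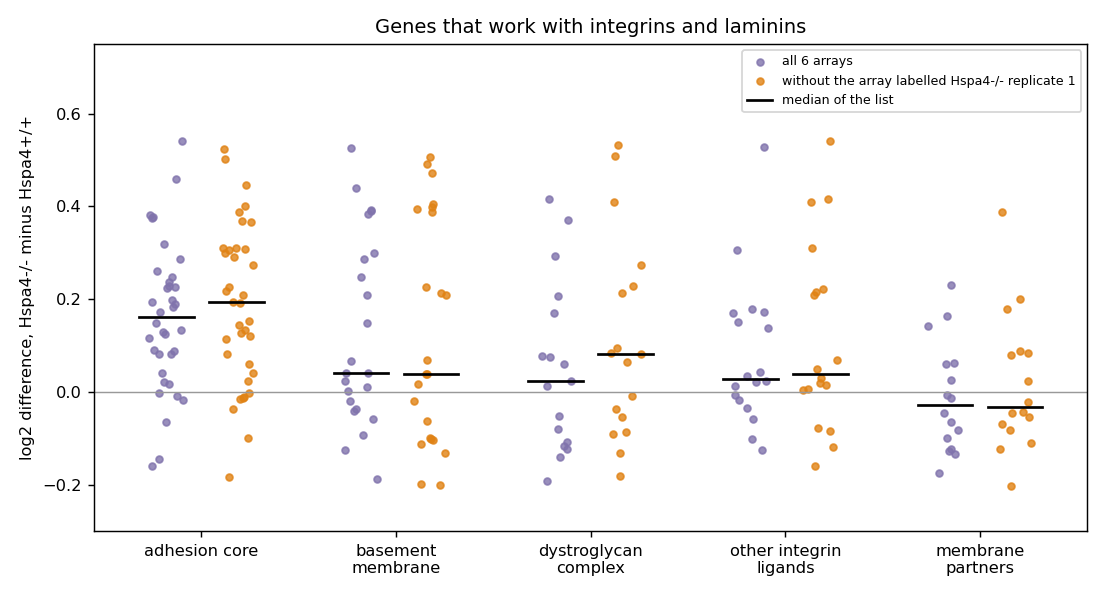
Log2 differences of the measured genes of the 5 lists that work with integrins and laminins, on 6 arrays (purple) and without the array labelled Hspa4-/- replicate 1 (orange), with the median of each list as a bar. On 6 arrays 30 of 36 adhesion core genes lie above 0 (all genes 9278 of 20239). The adhesion core medians are 0.16 and 0.19, while the other medians lie between −0.03 and 0.08.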

How the data were processed

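Deposited values were log2 intensities, 1 per probe set and array, made by the authors with affy in R 2.13.0 (source: per the submitters' processing notes). The sources used here do not state the background correction, normalisation or summary. The values give no measure of background. Of 21225 probe sets, 20239 carried 1 gene symbol, 0 several and 986 none in the platform annotation. Each array was taken as 1 mouse, from the stated 3 mice per genotype.

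A 2-group limma 3.58.1 fit (lmFit, eBayes, R 4.3.3) was run over 20239 genes without a filter on low values. It used Benjamini-Hochberg adjustment and a threshold of 0.05. The code was also run on simulated data, with effects larger than any member difference and no array against its label. That run therefore does not tell how well differences of the members' size would be found. Arrays were kept in their labelled groups. The members, the 5 pathway lists and the marker lists were chosen with earlier results of these data known. Values on every array are given for the 10 members with the smallest p in each form and for 15 main chains of the heart muscle surface and basement membrane. Of each list, up to 3 genes with the smallest p in either form are named, besides genes named because a small count rests on them.

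Replicate numbers did not pair the arrays, so the main fit holds no block. Alternatives were filters, quantile normalisation, median subtraction, array weights, a variance trend, the replicate block and left-out arrays.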

Additional observations from a re-analysis of the deposited data

How the results depend on the processing

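Under 13 alternatives on 6 arrays and 12 on 5, 0 of the 39 members passed, except Itga3 and Lama5 (2 members) without Hspa4+/+ replicate 2 on 5 arrays. In that alternative 875 of 20239 genes passed. On 6 arrays 26 members kept their sign in every alternative, and the 13 that did not had differences of at most 0.11 in size. On 5 arrays the numbers were 24 and 15, with differences of at most 0.15.

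The count of all genes past the threshold was 0 on 6 arrays, but 2 with either low-value filter, 2 with the replicate block and 115 with array weights. Leaving out 1 array gave 0 to 112 genes. On 5 arrays it was 89, against 156 and 167 with the lowest 25% and 50% left out, 35 with subtracted medians, 321 with array weights, 134 with the replicate block and 2 to 875 with 1 more array left out. The replicate block could only serve as a check: the deviations of same-numbered arrays correlated at −0.17, 0.09 and −0.25. It left 0 members past the threshold in both forms.

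Members higher without overlap numbered 4 on 6 arrays, 2 with subtracted medians and 5 to 9 with an array left out. Lower members numbered 4, or 1 with the lowest 50% left out and 4 to 10 with an array left out. On 5 arrays the 7 lower members became 1 with the lowest 50% left out and 7 to 15 with an array left out. Fewer arrays also left more of all genes without overlap. From 6 arrays to 5 the share over all genes went from 6.08% to 14.4% higher and from 9.07% to 18.9% lower. That share was not computed for the other settings, so these counts are not read as a result about the members. The median of integrin genes moved between −0.070 and 0.020 on 6 arrays with an array left out. With the lowest 50% of genes left out it was 0.0023 on 6 arrays and 0.00017 on 5. The laminin and nidogen median was 0.051 to 0.19 on 5 arrays with 1 more array left out. Hspa4 differed by −2.89 without the array labelled Hspa4-/- replicate 1 and by −2.89 to −1.54 over all arrays left out in turn. The cause of these moves was not tested, beyond the fewer genes or arrays each alternative holds.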
